A study of Homo sapiens with 3 samples.

Results

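Notch receptors, their ligands and their nuclear effectors were examined in RNA-seq libraries of HaCaT cells, an immortalised human keratinocyte line. The 10 genes were chosen by symbol from the 58735 Ensembl genes of the count table: the receptors NOTCH1, NOTCH2 and NOTCH3, the ligands JAG1, JAG2 and DLL1, the nuclear partners RBPJ and MAML1, and the effectors HES1 and HEY1. All 10 symbols matched 1 gene each, and 10 of 10 passed the expression filter that 14619 genes passed (at least 1 CPM, the count scaled to a common library total, in at least 1 library). Each of the 3 groups held 1 library of cells labelled wild type, at 24 h: a control exposed to neither agent, a culture given carbon black (CB) at 25 µg/mL, and a culture given S1650b at 50 µg/mL, both in medium without serum. The labels do not say what S1650b is, though the series title speaks of particulate matters, nor do they give the control's medium. With 1 library per group no test was possible and no difference below has a replicate check.

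Notch signalling passes between touching cells. A Jagged or Delta-like ligand on one cell binds a Notch receptor on its neighbour, the receptor is cut by an ADAM protease and then by gamma-secretase, and the freed intracellular part enters the nucleus. There it joins the DNA-binding protein RBPJ and a Mastermind coactivator such as MAML1 and switches on repressor genes of the HES and HEY families. In the epidermis the pathway is known for moving basal keratinocytes out of the cell cycle and into differentiation, with NOTCH1 as a main receptor and HES1 as a target of the suprabasal layers.

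The promoters of HES1, of its relative HES4 and of RBPJ are shown because these genes differed between libraries and because their promoters hold the RBPJ motif. Promoter sequences from RefSeq (GRCh38.p14, 250 bases before to 50 bases after each start) were found for 8 of the 10 genes, not for DLL1 or HEY1. The core motif TGGGAA, read on both strands, occurred in 24.0% of all 35116 promoters of that length, and the longer form GTGGGAA, which contains the core, in 6.25%. At least 2 core matches were present in 3.80%. Each stretch runs from position -150 to -1 before the start on the gene's own strand, with matches in capitals. HES1 lies at chr3:194135998-194136147 (plus strand), HES4 at chr1:1000098-1000247 (minus strand), and the second of 5 listed RBPJ starts at chr4:26319596-26319745 (plus strand).
HES1: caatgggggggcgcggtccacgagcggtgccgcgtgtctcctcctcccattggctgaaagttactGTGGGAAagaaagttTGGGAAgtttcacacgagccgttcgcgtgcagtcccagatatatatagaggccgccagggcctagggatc
HES4: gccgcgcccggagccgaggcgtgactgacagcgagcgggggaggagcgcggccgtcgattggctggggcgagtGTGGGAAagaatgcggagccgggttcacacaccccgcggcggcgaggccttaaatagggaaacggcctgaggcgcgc
RBPJ: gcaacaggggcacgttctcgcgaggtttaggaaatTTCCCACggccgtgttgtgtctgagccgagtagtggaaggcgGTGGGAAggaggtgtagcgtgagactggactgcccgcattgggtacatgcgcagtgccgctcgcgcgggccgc

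HES1 had 2 core matches in the same direction, the first starting at -84 inside a long match that starts at -85, and the next at -70. HES4 had 1 long match, at -77. The RBPJ start shown had 2 long matches facing opposite ways, at -115 on the minus strand and at -73 on the plus strand, and the other 4 RBPJ starts had none. Of the other HES and HEY promoters searched, HES5 and HEY2 each had 2 long matches and HEYL had 1, in genes with few or no counts. HES2, HES6, HES7 and NRARP had no core match, though HES2 and NRARP were also lower in S1650b. No core match was found in these windows for NOTCH1, NOTCH2, NOTCH3, JAG1, JAG2 or MAML1. A match is a match of letters and was not measured as a binding site.

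Libraries were of similar size, with 20417744 to 20946139 gene counts. Levels are given as CPM scaled by TMM, a factor from edgeR that corrects for RNA composition, and each fold is a ratio of scaled CPM. Its 95% interval, given in parentheses, is exact and comes from the binomial split of the gene's counts between both libraries (Clopper-Pearson). With 1 library per group it covers counting error only, not differences between cultures. PCR copies of a molecule cannot be recognised without molecular identifiers, so even counting error may be larger than the interval shows. A gene was called higher or lower when its fold was at least 1.5 and its interval lay on that side of 1. Scaling by total counts in place of TMM moved the median log2 fold of all genes from -0.04 to 0.15 for S1650b against control, and from 0.01 to 0.21 for S1650b against CB. The S1650b library also differed from the control by base content and length: over 8 bins of equal gene number, the median log2 fold ran from 0.64 at the lowest GC content to -0.42 at the highest, and from -0.30 for the shortest genes to 0.49 for the longest. In CB the same GC bins ran from 0.06 to -0.08. S1650b folds after removal of both trends are therefore given for each gene described.

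Keratinocyte markers were present throughout (12 of 12 tested, summed at 17462, 15421 and 9187 scaled CPM in control, CB and S1650b). KRT5 and KRT14 held most of the control sum, at 6979 and 4053 scaled CPM there and 2225 and 1402 in S1650b. KRT6A, SFN, PERP, ITGB4 and TRIM29 also lay below the control in S1650b, while KRT17, DSG3, LAMB3, ITGA6 and TP63 lay above it. With both trends removed, KRT17, DSG3 and LAMB3 stayed above (folds of 1.898, 1.303 and 1.411) and SFN moved above (1.095). ITGA6 and TP63 then lay below the control. Fibroblast markers, of which 4 of 8 passed the filter, summed to 181.8, 79.1 and 28.6 scaled CPM, with COL1A2, PDGFRA and PDGFRB at 0 counts in the control. Endothelial markers (3 of 8 tested) summed to 58.1, 32.6 and 48.1, with KDR and TEK at 0 in each library. Melanocyte markers (2 of 6 tested) summed to 9.72, 8.23 and 9.50 and immune markers (1 of 7 tested) to 2.28, 1.65 and 1.39.

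In the CB library, 3 of the 10 Notch genes were called lower than in the control and 0 higher, where 10.5% of all tested genes were lower and 4.86% higher. NOTCH1, NOTCH3 and HES1 were those 3. The median log2 fold over the 10 genes was -0.16, beside 0.0049 over all genes. In the S1650b library, 5 of 10 were called lower (NOTCH1, NOTCH3, JAG2, HES1 and HEY1) and 1 higher (RBPJ), where 19.2% of all genes were lower and 22.1% higher, with a median of -0.48 beside -0.04. Scaled by total counts, 4 of 10 were lower and 2 higher, where 11.9% of all genes were lower and 28.99% higher. JAG2 was then no longer called, and NOTCH2 was called higher. With both trends removed, 4 of 10 were lower and 0 higher, where 17.8% of all genes were lower and 13.8% higher. The CB and S1650b comparisons use the same control library, so a control value that stood apart would enter both.

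**Figure D1:**
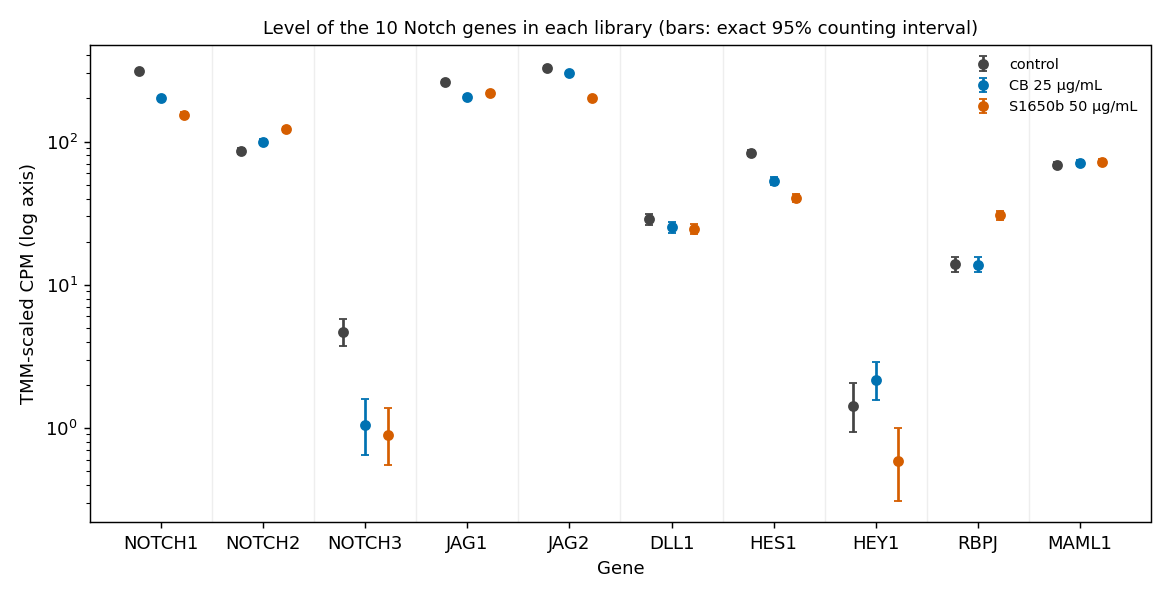
Level of each of the 10 Notch genes in the control, CB and S1650b libraries, as TMM-scaled CPM on a log axis. Each point is 1 library and each bar its exact 95% counting interval. NOTCH1, NOTCH3 and HES1 lie below the control in both particle libraries, and RBPJ stands at 30.5 CPM in S1650b against 13.9 in the control.

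Among the receptors, NOTCH1 (ENSG00000148400, chromosome 9, 136494433 to 136545786, minus strand, GRCh38) had 6113, 4008 and 3446 counts in control, CB and S1650b, or 309.5, 199.9 and 154.5 scaled CPM. The control was highest and S1650b lowest. The fold was 1.55-fold lower in CB (interval 1.49 to 1.61) and 2.004-fold lower in S1650b (1.92 to 2.09). Removal of the length and GC trends left an S1650b difference of 2.23-fold and a CB difference of 1.46-fold. The CB value lies just past the size rule, and removal of the trends took it below.

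NOTCH2 (ENSG00000134250, chromosome 1, 119911553 to 120069626), a receptor of the same architecture, had 1701, 2004 and 2722 counts, or 86.1, 99.96 and 122.0 scaled CPM. Its order across the libraries was the reverse of NOTCH1. The folds of 1.16 in CB (1.09 to 1.24) and 1.42 in S1650b (1.33 to 1.51) did not reach the size rule. Its exons span 16807 bases at a GC content of 47.8%, and with both trends removed its S1650b fold was 0.873, on the other side of 1. The human-specific partial copy NOTCH2NLA, which shares sequence with NOTCH2, had 7, 5 and 24 counts, and summing the copies gave folds of 1.16 and 1.42.

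NOTCH3 (ENSG00000074181, chromosome 19, 15159038 to 15200981), a receptor best known from vascular smooth muscle, had 92, 21 and 20 counts in control, CB and S1650b. These are 4.66, 1.05 and 0.896 scaled CPM, so the gene was sparse everywhere and the control stood apart from both particle libraries. It was 4.45-fold lower in CB (2.75 to 7.52) and 5.20-fold lower in S1650b (3.18 to 8.90), and 5.56-fold lower there with both trends removed. The summed fibroblast markers were also highest in the control and lowest in S1650b, as given above, and their part in this difference was not tested. Of the 4 tested markers DCN, FBLN1 and COL3A1 had that order, while COL1A1 had 120, 106 and 156 counts in control, CB and S1650b. In bulk RNA, fewer cells of a type and less RNA per cell cannot be told apart.

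Because counts of 2 genes in one library share its depth, their ratio does not depend on scaling between libraries. NOTCH1 had 3.59 counts for each NOTCH2 count in the control (3.41 to 3.79), 2 in CB (1.895 to 2.11) and 1.27 in S1650b (1.20 to 1.33). None of these intervals overlap. After removal of both trends the ratios were 2.10 in CB and 1.85 in S1650b (1.75 to 1.94), a smaller difference from the control. Per length, as the authors' FPKM, NOTCH1 made up 84.0, 75.8 and 66.8% of the RNA of the 4 Notch receptors in control, CB and S1650b, and NOTCH2 14.4%, 23.4% and 32.6%. The S1650b shares were 74.4 and 24.9% after removal of both trends. The summed receptor FPKM was 35.4, 26.5 and 22.04. NOTCH4, the receptor of endothelium, had 8, 18 and 8 counts and did not pass the filter.

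**Figure D2:**
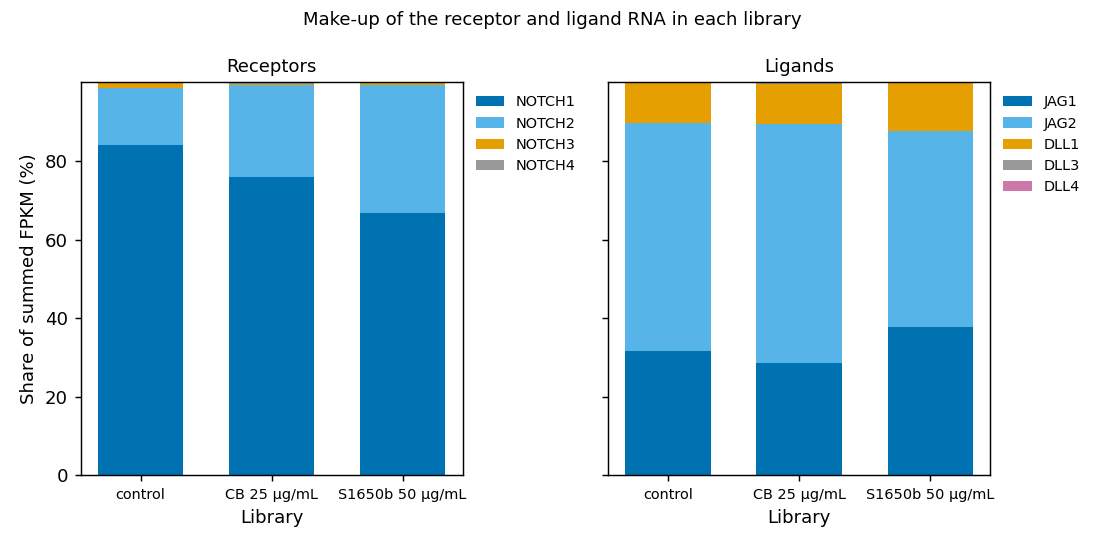
Share of summed FPKM held by each Notch receptor (left) and each Jagged or Delta-like ligand (right) in the 3 libraries. The NOTCH1 share is 84.0% in the control and 66.8% in S1650b, and the NOTCH2 share 14.4% and 32.6%, before removal of any trend.

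Among the ligands, JAG2 (ENSG00000184916, chromosome 14, 105140981 to 105168824), a Jagged ligand of the basal epidermis, had 6465, 6002 and 4464 counts, or 327.3, 299.4 and 200.1 scaled CPM. The control and CB were close and S1650b was lower. The difference was 1.09-fold in CB (1.06 to 1.13) and 1.64-fold in S1650b (1.574 to 1.6998). It fell short of the size rule with both trends removed (1.48-fold lower) and under scaling by total counts (a fold of 0.699). The gene AL512356.1 overlaps 7.33% of the JAG2 exons, and the sources used here do not state whether counting used the strand.

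JAG1 (ENSG00000101384, chromosome 20, 10637684 to 10673999), the other Jagged ligand, had 5147, 4112 and 4905 counts, or 260.6, 205.1 and 219.9 scaled CPM. It was called in neither particle library, at folds of 0.787 in CB (0.755 to 0.820) and 0.844 in S1650b (0.811 to 0.878). With both trends removed the S1650b fold was 0.676, still short of the rule, and with the length trend alone removed it was 0.646, past it.

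DLL1 (ENSG00000198719, chromosome 6, 170282206 to 170306565), a Delta-like ligand linked to keratinocyte stem cells, had 565, 504 and 548 counts, or 28.6, 25.1 and 24.6 scaled CPM, close in all 3 libraries. Its folds were 0.879 in CB (0.778 to 0.993) and 0.859 in S1650b (0.762 to 0.968), the latter turning to 1.20 with both trends removed. JAG2 held 58.0, 60.8 and 49.9% of the ligand FPKM and JAG1 31.8, 28.7 and 37.7%. With both trends removed the S1650b shares were 53.7% for JAG2 and 29.5% for JAG1. The DLL1 share was then 16.6% in S1650b, beside 10.1% in the control. JAG2 counts per JAG1 count were 1.26 in the control (1.21 to 1.30), 1.46 in CB (1.403 to 1.52) and 0.910 in S1650b (0.874 to 0.948). The S1650b ratio was 1.25 once both trends were removed (1.20 to 1.30), close to that of the control. Per length JAG2 exceeded JAG1 in all 3 libraries.

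Among the nuclear partners, RBPJ (ENSG00000168214, chromosome 4, 26163455 to 26435131) had 274, 277 and 680 counts, or 13.9, 13.8 and 30.5 scaled CPM. Control and CB differed by less than counting error (fold 0.996, 0.840 to 1.18), and S1650b stood above both. RBPJ was 2.20-fold higher in S1650b than in the control (1.91 to 2.54). Its transcripts have a GC content of 40.8%, the lowest of the 10 genes, in a GC bin whose median log2 fold was 0.42. With the length trend removed the fold was 1.68, and with both trends removed it was 1.24 and no longer called. The 4 RBPJ pseudogenes matched in the table had 0 counts in each library.

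MAML1 (ENSG00000161021, chromosome 5, 179732850 to 179777286), the Mastermind coactivator, had 1357, 1417 and 1607 counts, or 68.7, 70.7 and 72.03 scaled CPM. Its folds of 1.03 in CB (0.954 to 1.11) and 1.05 in S1650b (0.975 to 1.13) had intervals that include 1, and the S1650b fold was 1.15 with both trends removed. RBPJ counts per MAML1 count were 0.202, 0.195 and 0.423 in control, CB and S1650b, but 0.216 in S1650b with both trends removed (0.197 to 0.236).

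HES1 (ENSG00000114315, chromosome 3, 194136145 to 194138732), the repressor whose promoter is shown above, had 1633, 1061 and 902 counts, or 82.7, 52.9 and 40.4 scaled CPM. The order was that of NOTCH1, with the control highest. It was 1.56-fold lower in CB (1.45 to 1.69) and 2.04-fold lower in S1650b (1.88 to 2.22). With both trends removed it was 1.52-fold and 1.64-fold lower. With the deposited FPKM and 0.1 added, the CB folds of HES1 and NOTCH1 were 0.669 and 0.676, just short of the rule.

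HEY1 (ENSG00000164683, chromosome 8, 79764010 to 79767863), a related repressor, had 28, 43 and 13 counts, or 1.42, 2.14 and 0.583 scaled CPM. The fold of 1.51 in CB was within counting error (0.919 to 2.53), and the gene was called lower in S1650b at 2.43-fold (1.22 to 5.12), or 2.16-fold with both trends removed. HEY1 passed the filter through the control and CB only, and these few counts leave the size of the difference poorly determined.

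**Figure D3:**
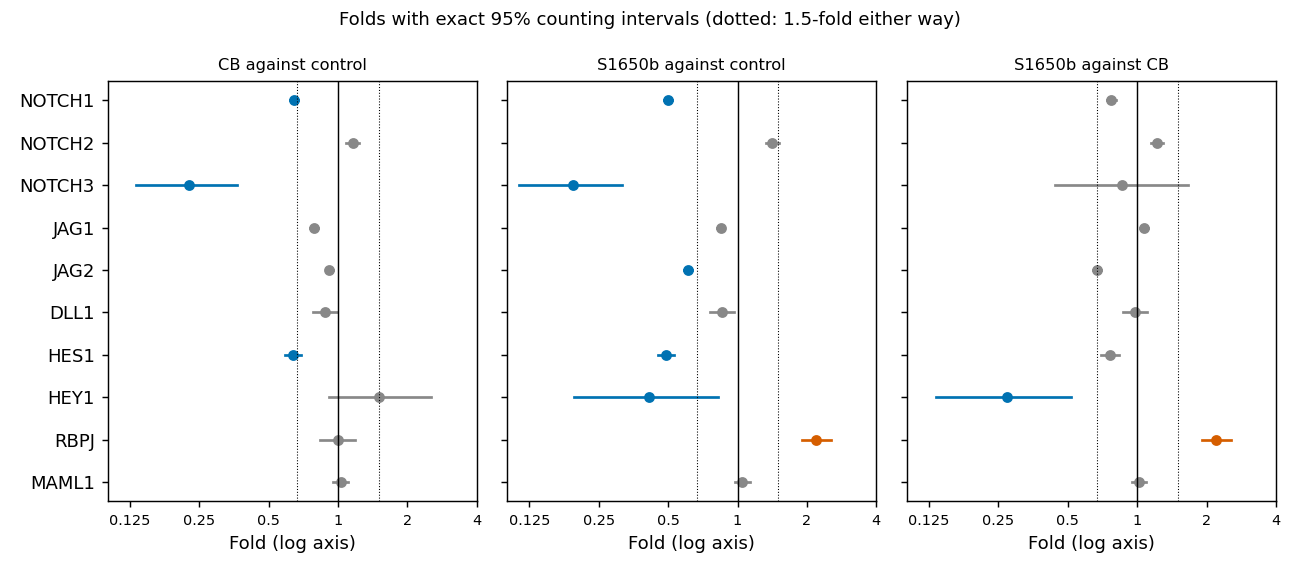
Fold of each Notch gene in the 3 comparisons, on a log axis, with exact 95% counting intervals. Blue points were called lower, orange higher and grey neither, and dotted lines mark 1.5-fold either way. NOTCH1 in CB, at 1.55-fold lower, lies just past the line.

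Set directly against CB, S1650b had 1 of the 10 genes higher and 1 lower, where 26.1% of all genes were higher and 20.8% lower (33.0 and 14.1% under scaling by total counts). The particle doses differ, so this sets a 50 µg/mL culture beside a 25 µg/mL culture. RBPJ was 2.21-fold higher (1.92 to 2.55), or 1.27-fold with both trends removed, and HEY1 3.68-fold lower (1.94 to 7.46). NOTCH1 and HES1 were lower by 1.29-fold (1.24 to 1.36) and 1.31-fold (1.20 to 1.43), short of the rule. Removal of both trends left NOTCH1 1.51-fold lower, past the rule, and HES1 1.09-fold lower. JAG2, at 1.496-fold lower (1.44 to 1.56), lay just outside it, and NOTCH3 had an interval that includes 1 (0.440 to 1.66).

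The GC content of the 10 genes and their S1650b folds are plotted together because the library shows a trend over all genes. RBPJ and NOTCH2, with the highest folds, have GC contents of 40.8 and 47.8%, while NOTCH1, NOTCH3 and JAG2, which were lower, have 63.7, 63.1 and 64.1%. HES1 and HEY1, lower as well, have 50.7 and 49.3%, in bins with medians of -0.14 and 0.07. What part the trends have in any single fold was not tested.

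**Figure D4:**
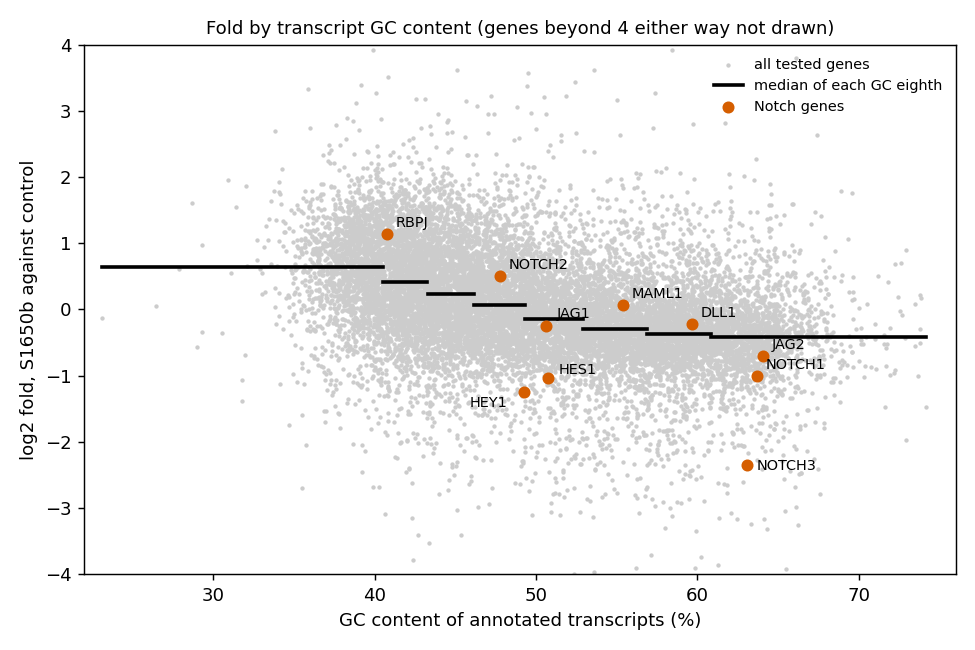
Log2 fold of S1650b against control by GC content of the annotated transcripts, for all tested genes (grey) and the 10 Notch genes (orange). Black lines are medians of 8 bins of equal gene number, from 0.64 to -0.42. NOTCH1, NOTCH3, JAG1, JAG2, HES1 and HEY1 lie below the median of their bin, and NOTCH2, DLL1, RBPJ and MAML1 above it.

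Per length, JAG2 was the most abundant of the 10 genes in each library, at 51.0, 48.7 and 30.95 FPKM. In the control the order continued with HES1 (39.97), NOTCH1 (29.7), JAG1 (27.9), MAML1 (11.5), DLL1 (8.84), NOTCH2 (5.11), RBPJ (1.49), NOTCH3 (0.494) and HEY1 (0.437). The last pair did not differ beyond counting error, and each other neighbour did. JAG1 passed NOTCH1 in CB (22.96 against 20.1 FPKM) and both HES1 and NOTCH1 in S1650b (23.4 against 19.4 and 14.7). After removal of both trends, HES1 was again above JAG1 in S1650b (24.2 against 18.75 FPKM). In S1650b, DLL1 and NOTCH2 (7.53 and 7.18 FPKM) and the pair HEY1 and NOTCH3 did not differ beyond counting error. With both trends removed, DLL1 and NOTCH2 stood apart there (10.5 and 4.43 FPKM), while NOTCH1 and MAML1 were close (13.24 and 13.21). In the control, JAG2 exceeded 93.3% of tested genes in FPKM, HES1 91.2% and NOTCH1 88.2%, while RBPJ exceeded 28.3%.

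Genes with a like pattern were ranked by the Euclidean distance between pairs of log2 folds against the control, a description over 3 libraries. Among 9122 protein-coding genes with a mean of at least 10 CPM, the gene nearest to NOTCH1 was HES1, at a distance of 0.03, and NOTCH1 was in turn the nearest to HES1. EPHB3 and ARRB1 came next for both, and 10 genes lay within 0.1 of NOTCH1 and 8 of HES1. JAG1 lay closest to ATXN10, TOB2 and TBC1D1, in a denser region with 90 genes within 0.1. These neighbours depend on the trends: with both removed, HES1 lay at 0.45 from NOTCH1, at rank 179, and the nearest were VANGL2 for NOTCH1, KLF5 for HES1 and FKBPL for JAG1.

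The wider pathway was covered by 7 lists of 76 genes, of which 67 passed the filter. In CB, 2 of the 67 were higher and 10 lower (median log2 fold -0.10, beside 0.0049 over all genes). In S1650b, 16 were higher and 19 lower (median -0.12, beside -0.04), and 9 and 18 with both trends removed. Set against CB, S1650b had 19 higher and 15 lower (median 0.02, beside 0.01). The percentages of all genes called, given above, are the background for these counts, except those with both trends removed, where 13.8% of all genes were higher and 17.8% lower in S1650b against control.

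Other HES and HEY genes and Notch targets had 0 higher and 2 lower of 7 in CB, beside 4.86 and 10.5% of all genes. In S1650b 0 were higher and 4 lower of 7 (median -0.85), beside 22.1 and 19.2% of all genes. CCND1, HES6 and MYC, the tested genes of the list called in neither library, had S1650b folds of 1.05, 0.900 and 0.680. With both trends removed these folds were 1.24, 1.25 and 0.949. HEY2 passed the filter through the control and CB only, at 1.37 and 1.05 scaled CPM. NRARP, a feedback inhibitor that binds the Notch intracellular part, had 894, 834 and 310 counts and was 3.26-fold lower in S1650b (2.86 to 3.72). HES4, whose promoter is shown above, had 677, 449 and 276 counts and was 1.53-fold lower in CB (1.36 to 1.73) and 2.77-fold lower in S1650b (2.41 to 3.20). Its GC content of 74.2% is the highest of all tested genes. With both trends removed its folds were 0.751 in CB, no longer called, and 0.479 in S1650b, and the NRARP fold in S1650b was 0.437. HES2, another member of the family, was 1.82-fold lower in CB and 1.80-fold lower in S1650b, or 1.53-fold there with both trends removed. HEY2 had 27, 21 and 7 counts and was 4.36-fold lower in S1650b (1.85 to 11.9), or 4.18-fold with both trends removed. HES5 and HEYL had 0 counts in each library, which allows up to 3 counts in each.

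Of the other receptors and ligands only DLK2, a Delta-like protein without the domain that activates Notch, passed the filter. It had 1958, 1162 and 603 counts and was 1.71-fold lower in CB (1.59 to 1.84) and 3.67-fold lower in S1650b (3.35 to 4.02), or 2.52-fold there with both trends removed. DLL4, an endothelial ligand, had 0, 0 and 3 counts.

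Receptor-cleaving enzymes had 1 higher and 0 lower of 8 in CB, beside 4.86 and 10.5% of all genes. In S1650b they had 3 higher and 1 lower, beside 22.1 and 19.2%. PSEN2, a catalytic subunit of gamma-secretase, was higher in both, at 1.81-fold (1.51 to 2.18) and 1.65-fold (1.38 to 1.99), and 2.13-fold in S1650b with both trends removed. The ADAM proteases that make the first cut were higher in S1650b, ADAM17 at 2.11-fold (1.93 to 2.32) and ADAM10 at 1.75-fold (1.65 to 1.86). Their transcripts are long and low in GC, and with both trends removed their folds were 1.16 and 0.842, so neither call held. APH1A, a scaffold subunit of gamma-secretase, was 1.91-fold lower in S1650b (1.83 to 1.997), or 1.46-fold with both trends removed, so this call was lost as well.

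Genes that glycosylate the receptors had 0 of 5 called in CB, where 4.86% of all genes were higher and 10.5% lower. In S1650b the Fringe enzyme MFNG was 1.64-fold higher (1.38 to 1.96) and POFUT1, which adds O-fucose, 1.503-fold lower (1.42 to 1.59). These were, once both trends were removed, 2.32-fold higher and 1.57-fold lower.

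Genes of endocytosis and turnover had 1 higher (NEURL1, described below) and 1 lower of 15 in CB, beside 4.86 and 10.5% of all genes. In S1650b they had 6 higher and 5 lower, beside 22.1 and 19.2%. With both trends removed, DTX3L, FBXW7 and AAK1 were no longer called higher there, at folds of 1.35, 1.03 and 0.857. DTX2 was then no longer called lower (0.699). DTX4, a Deltex ubiquitin ligase, was 2.33-fold lower in CB (2.20 to 2.47). In S1650b it was 1.72-fold lower (1.63 to 1.80), or 1.60-fold with both trends removed. ITCH, a ubiquitin ligase that acts on Notch, was 3.41-fold higher in S1650b (3.19 to 3.64) and MIB1, the ligase that activates ligands, 2.97-fold (2.70 to 3.25). With both trends removed these folds were 2.24 and 1.56.

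Nuclear coactivators and corepressors had 0 higher and 3 lower of 20 in CB, beside 4.86 and 10.5% of all genes. In S1650b they had 4 higher and 2 lower, beside 22.1 and 19.2%. In CB the lower genes were KAT2B, an acetyltransferase (2.08-fold), MAML3, a Mastermind paralogue (2.13-fold), and TLE2, a Groucho corepressor (1.54-fold, or 1.47-fold with both trends removed). TLE2 was also 3.34-fold lower in S1650b (2.55 to 4.42), or 2.59-fold with both trends removed. MAML3 was 1.62-fold lower there (1.15 to 2.29), or 1.66-fold with both trends removed. KAT2B was not called in S1650b, at a fold of 1.28, or 0.997 with both trends removed. KDM5A, a histone demethylase found with RBPJ, was 3.68-fold higher in S1650b (3.26 to 4.16) and CIR1, a corepressor, 2.23-fold (1.89 to 2.63), at 2.20 and 1.78 with both trends removed. NCOR1, another corepressor, was 2.03-fold higher (1.91 to 2.16), but 1.22 with the trends removed.

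Epidermal genes linked to Notch had 0 higher and 3 lower of 11 in CB, beside 4.86 and 10.5% of all genes. In S1650b they had 2 higher and 5 lower, beside 22.1 and 19.2%. IVL, the cornified envelope protein involucrin, had 1213, 290 and 306 counts, and KRT1, a keratin of suprabasal cells, had 77, 5 and 5. Their S1650b folds were 4.48-fold (3.95 to 5.09) and 17.4-fold lower (7.14 to 55.1), or 3.08-fold and 13.4-fold with both trends removed. KRT1 passed the filter only through the control, at 3.90 scaled CPM against 0.249 in CB and 0.224 in S1650b. The size of the KRT1 difference is therefore poorly determined. KRT10 and FLG, of the same list, were called in neither direction in S1650b. Their folds there were 0.817 and 1.24, or 1.04 and 0.992 with both trends removed. In CB, FLG was called lower (fold 0.629) and KRT10 was not called (1.12). In S1650b the basal keratins KRT5 and KRT14, which also count among the keratinocyte markers, were 3.14-fold and 2.89-fold lower, or 2.57-fold and 1.99-fold with both trends removed. CDKN1A, the cell cycle inhibitor p21, had 1314, 1505 and 4030 counts, and its S1650b fold was 2.72, or 3.81 with both trends removed. ITGB1, a basal integrin, had 4367, 5035 and 9959 counts and a fold of 2.02, or 1.37 with both trends removed.

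**Figure D5:**
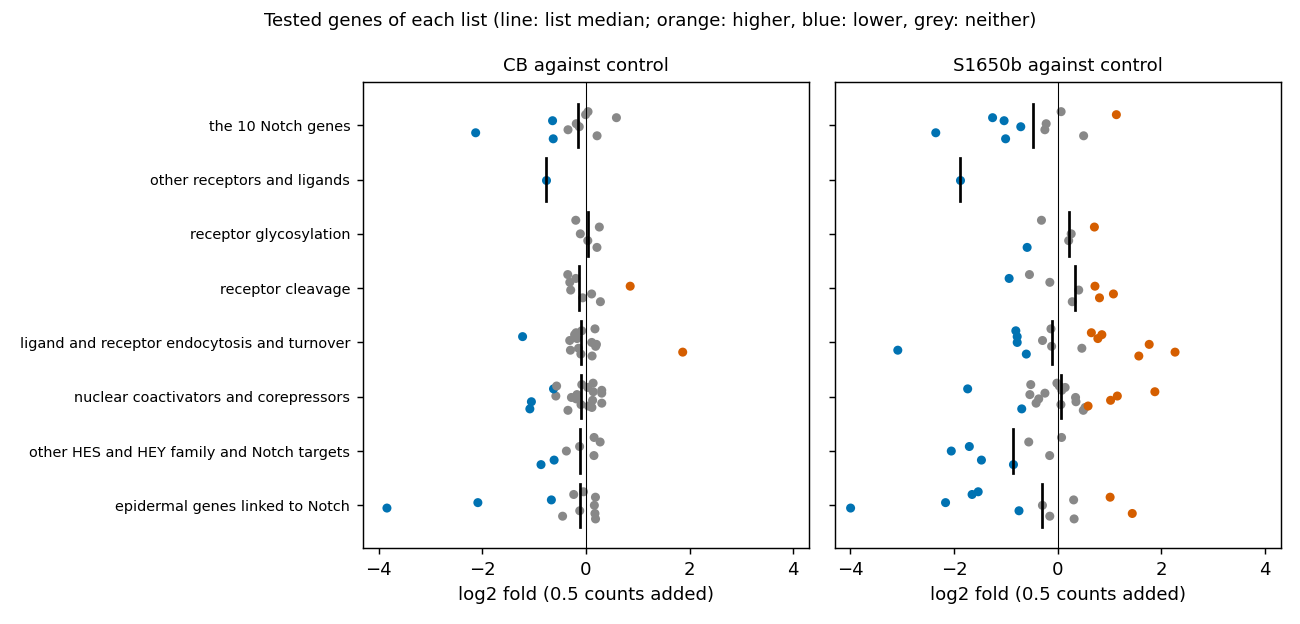
Log2 folds of the tested genes of each list against the control, for CB (left) and S1650b (right), with 0.5 counts added. Each point is a gene, black lines are list medians, and orange and blue points were called higher and lower. The HES, HEY and target list has 4 of 7 genes lower in S1650b and 0 higher, where 19.2% of all tested genes were lower and 22.1% higher.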

How the data were processed

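The deposited count table holds whole-number counts per Ensembl gene for each library, and the deposited FPKM table holds FPKM by the authors. Per the labels, Trizol was used for extraction and a NEBNext Ultra kit for the libraries. CASAVA 1.7 is listed in the submitters' processing notes, with the mouse builds mm8 and mm9, which conflict with the human identifiers. No aligner, counter or strand setting was given in the sources used here. Counts divided by FPKM gave the GENCODE 29 exon length for each of the 10 genes, and all 58735 identifiers occur in GENCODE 29, from which GRCh38 positions and transcript GC content (known for 14613 of 14619 tested genes) were taken. Symbols matched for 58207.

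TMM and upper-quartile factors came from edgeR 4.0.16 and median-of-ratios factors from DESeq2 1.42.0, in R 4.3.3. Folds were computed in Python 3.11.15 with scipy 1.17.1 and lowess trends (span 30%) with statsmodels 0.14.6. Each trend was removed around its median. For log2 folds, 0.5 counts were added. The calculations were tested on simulated data. The members and gene lists were chosen with earlier results of these data known. Named pathway genes were up to 4 called genes per list and comparison, ranked by the interval end nearest to 1, of which the text gives a part, with genes that share sequence with a member and the 3 nearest genes of NOTCH1, JAG1 and HES1. NOTCH4, DLL4, HES5 and HEYL, which did not pass the filter, were named after their values were seen. Alternatives were other scalings, the FPKM with 0.1 added, no filter or 5 CPM, a fold of at least 2, and removal of length or length and GC trends. Removal of the trends from ratios, shares, the order by FPKM and the nearest genes was chosen after seeing the data.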

Additional observations from a re-analysis of the deposited data

How the results depend on the processing

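Each alternative was run on the counts of called genes and, where it changes a fold, on the 10 genes. No gene of the 10 called in the main results changed direction under any of them. NOTCH2, called higher in S1650b against control only under scaling by total counts (fold 1.62), lay at 0.873 with both trends removed. DLL1, not called there, went from 0.859 to 1.20 with both trends removed. In CB against control, 3 of the 10 genes were lower, and 1 was with the deposited FPKM or with a fold of at least 2 (NOTCH3 in each). Of all genes, 10.5% were lower, 9.71% with that FPKM and 5.53% with that fold. Of the wider pathway genes, 2 higher became 1 with a filter of 5 CPM or a fold of at least 2, and 10 lower became 5 with a fold of at least 2. Over all genes, 4.86% higher became 3.96% with that filter and 1.71% with that fold. In S1650b against control, 1 of the 10 genes was higher (RBPJ), 2 were under scaling by total counts (NOTCH2 added), and 0 were with length and GC trends removed. Of all genes, 22.1% were higher, 28.99% under that scaling and 13.8% with both trends removed. The 5 lower genes became 3 with a filter of 5 CPM, which NOTCH3 and HEY1 do not pass. Of all genes, 19.2% were lower, and 20.1% with that filter. The 5 lower genes became 4 under scaling by total counts, both trends removed or a fold of at least 2. With the length trend removed they became 6 (JAG1 added). In those settings, in that order, 11.9, 17.8, 7.86 and 19.1% of all genes were lower. The wider genes went from 16 higher to 9 with both trends removed and to 9 with a fold of at least 2, and from 19 lower to 10 with that fold. With a fold of at least 2, 12.1% of all genes were higher and 7.86% lower. In S1650b against CB, the 1 lower gene (HEY1) became 2 with median-of-ratios factors or the deposited FPKM (JAG2 added), 3 with the length trend removed, 2 with both trends removed and 0 with a filter of 5 CPM. Of all genes, 20.8% were lower, 21.1% with median-of-ratios factors and 23.8% with the FPKM. With the length trend removed 22.1% were lower, with both removed 21.4%, and with the filter of 5 CPM 22.7%. The 1 higher gene became 0 with both trends removed, where 18.5% of all genes were higher. The wider genes went from 19 higher to 12 with the length trend removed, 10 with both removed and 7 with a fold of at least 2, and from 15 lower to 7 with that fold. Over all genes the share higher went from 26.1% to 22.6, 18.5 and 15.8%, and the share lower from 20.8 to 9.54%. Fewer genes tested or a larger fold lowers a count by construction, and the cause of the other shifts was not tested. Depth limits NOTCH3 and HEY1, with 13 to 92 counts in each library. No paired analysis was possible because each group holds 1 library.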

Other observations

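The raw counts of HES1 and NOTCH1 had nearly the same ratio in the 3 libraries, but not once trends with gene length and GC content were removed. HES1 counts per NOTCH1 count were 0.267 in control (0.253 to 0.282), 0.265 in CB (0.247 to 0.283) and 0.262 in S1650b (0.243 to 0.282). This ratio does not depend on scaling between libraries. With both trends removed it was 0.258 in CB (0.240 to 0.276) and 0.363 in S1650b (0.337 to 0.391). The pair was picked after its values were seen, and 3 libraries do not test whether the genes move together.

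The neuralized ubiquitin ligases NEURL1 and NEURL1B, which act on Notch ligands, differed in opposite directions in S1650b. Both were named because they were called, so the pair was picked by its values. NEURL1 had 18, 68 and 100 counts in control, CB and S1650b, and was 3.72-fold higher in CB (2.19 to 6.65) and 4.92-fold higher in S1650b (2.96 to 8.64). Its control level of 0.911 scaled CPM lay below the filter, which it passed only through CB (3.39) and S1650b (4.48). That NEURL1 was called higher was therefore partly set by the filter. NEURL1B had 543, 448 and 72 counts, and was 8.52-fold lower in S1650b (6.65 to 11.05). After removal of both the length and the GC trend, the S1650b folds were 5.88 for NEURL1 and 0.130 for NEURL1B. Per length, NEURL1B stood at 4.27 FPKM against 0.183 for NEURL1 in the control, and at 0.497 against 0.894 in S1650b.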
